A study of Mus musculus with 15 samples.

Results

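The genes described here encode the Reelin signalling pathway and proteins that move neurons through the developing brain. The 10 genes were listed by name, with no threshold on their values, although earlier results of these data were known when the list was made: Reln, Dab1, Vldlr, Lrp8, Fyn, Cdk5, Cdk5r1, Pafah1b1, Dcx and Cntn2. Of these, 8 were represented by 20 of the 25697 probes on the arrays, and 16593 genes were represented in all. Lrp8 and Cntn2 were not named by any probe in the annotation used and were not analysed here.

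Cerebellar RNA of newborn mice at P1 (postnatal day 1) was hybridized to arrays, using 1 Illumina MouseRef-8 v2 array per sample. KO animals carried Cxcr4 alleles with loxP sites around exon 2 together with Sox1-Cre, which acts in the neural tube. WT animals were littermates without Cre, and all samples were labelled as strain C57BL/6. There were 8 WT samples, numbered 1 to 8, and 7 KO samples, numbered 2 to 8. The transgene was used to remove the receptor from the central nervous system. Whether it acted in meninges, blood vessels or blood cells was not measured on these arrays. Cxcr4 itself had a log2 signal of 8.80 to 9.79 on the WT arrays and 6.45 to 6.89 on the KO arrays, so the genotypes did not overlap. The position of its probe relative to the deleted exon was not given.

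Values are log2 fluorescence signals scaled so that each array has the same median, 6.84. A signal near this median is dim and says little about the RNA, and the level of 1 probe cannot be set against that of another probe. KO was compared with WT for every probe with limma's two-sided test, and p-values were adjusted over all probes with a threshold of 0.05. The brightest probe of a gene stands for the gene. The samples were described as biological replicates, and p-values set a difference against the spread between them. The litter of each array was not given. In RNA of a whole tissue, fewer cells of a type and less RNA per cell cannot be told apart.

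Reelin is a large secreted protein that tells migrating neurons where to stop. It binds the lipoprotein receptors VLDLR and LRP8 on the target cell, and kinases of the SRC family such as FYN then phosphorylate the adaptor DAB1. In the developing cerebellum Reelin is made by granule cell precursors of the external granule layer and by neurons of the future deep nuclei, and Purkinje cells respond to it by settling into a plate. CDK5 with its activator p35 acts on Purkinje cell positioning in parallel, and LIS1 and doublecortin act on the microtubules and the dynein motor that pull the nucleus forward. The study asked how loss of CXCR4, the receptor for the chemokine CXCL12, alters gene expression in a cerebellum whose granule cells and Purkinje cells lie in the wrong place.

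The start regions of the secreted ligand and of the microtubule protein are shown because their sequences are far apart in composition. Both windows hold 300 bases, most of them upstream of the annotated start in RefSeq (GRCm38.p6), with Reln at chr5:22344656-22344955 on the minus strand and 1 of the starts of Dcx at chrX:143933170-143933469 on the minus strand. Capitals mark the GC box GGGCGG or its reverse complement and the motif TATAA or its reverse complement, and overlapping TATAA matches appear as 1 run.
Reln: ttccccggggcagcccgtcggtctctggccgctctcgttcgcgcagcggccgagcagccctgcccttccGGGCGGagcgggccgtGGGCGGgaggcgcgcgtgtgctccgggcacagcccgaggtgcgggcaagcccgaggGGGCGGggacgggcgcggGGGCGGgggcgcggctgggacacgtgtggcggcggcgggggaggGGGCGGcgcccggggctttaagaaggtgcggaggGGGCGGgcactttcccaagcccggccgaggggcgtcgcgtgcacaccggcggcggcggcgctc
Dcx: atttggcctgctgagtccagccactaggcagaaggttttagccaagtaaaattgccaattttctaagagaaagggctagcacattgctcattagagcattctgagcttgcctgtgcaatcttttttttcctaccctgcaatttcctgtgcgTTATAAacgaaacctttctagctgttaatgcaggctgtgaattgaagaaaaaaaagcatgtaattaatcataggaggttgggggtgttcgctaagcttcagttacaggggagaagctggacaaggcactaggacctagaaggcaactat

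The Reln window held 80.7% G and C, 47 CG dinucleotides and 6 GC boxes. Of 32817 mouse promoter windows of this length, 98.6% had fewer CG dinucleotides and 35.6% held a GC box. The Dcx window held 43.0% G and C, 3 CG dinucleotides, no GC box and 2 TATAA matches, 1 on each strand at the same place, and 24.9% of windows held such a match. Motif matches describe these letters only.

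None of the 8 measured genes and none of their 20 probes passed the threshold between KO and WT in limma, where 20 probes (0.0778% of all probes) and 19 genes (0.115% of all genes) passed. At an unadjusted p under 0.05, 1 of the 20 probes differed, that of Reln, against 5.42% of all probes. The median log2 fold change over the 8 genes was -0.011, against 0.0145 over all genes. Standard errors of the 20 differences lay between 0.0562 and 0.121, with a median of 0.075 over all probes. Most estimates of KO against WT lay near 0, with intervals on both sides of it.

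**Figure D1:**
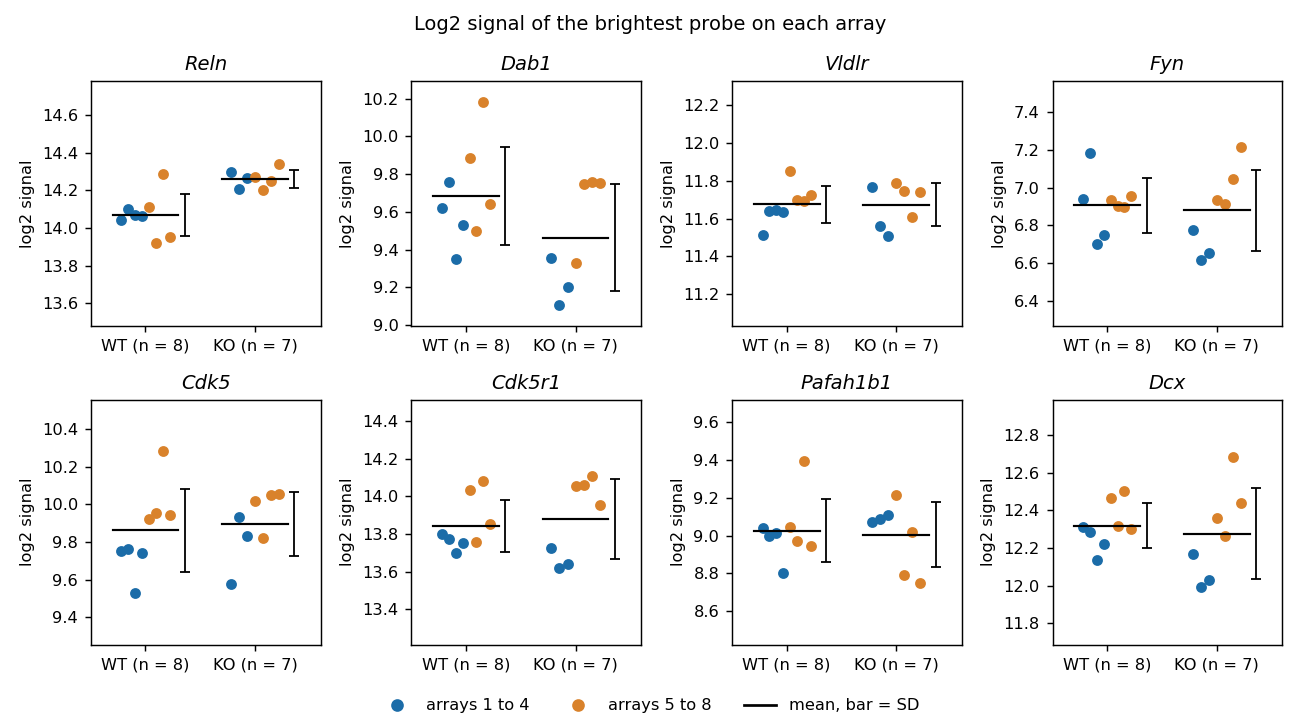
Log2 signal of the brightest probe of each of the 8 measured genes on each array, with WT (n = 8) and KO (n = 7) side by side and the array number given by colour. The line is the mean and the bar the SD, and each panel has its own level on the y axis but the same span. The KO arrays of Reln lie between 14.20 and 14.34, and the other genes show broad overlap.

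Reln, the ligand, was measured by a single bright probe, for transcript NM_011261. Its log2 signal in WT had a lowest value of 13.92, a median of 14.07 and a highest value of 14.29. In KO the lowest value was 14.20, the median 14.26 and the highest 14.34. All 7 KO arrays lay above the WT mean and above 7 of the 8 WT arrays, and WT replicate 7 overlapped the KO range. The WT mean was 14.07 ± 0.11 (SD, n = 8), against 14.26 ± 0.049 (SD, n = 7) for KO. KO exceeded WT by 0.19 on the log2 scale (SE 0.0581, 95% interval 0.072 to 0.31), which is a signal ratio of 1.14 (1.05 to 1.24). An exact permutation test over 6435 splits of the arrays gave an unadjusted two-sided p of 0.00171, 1 of 8 such tests, and limma's p adjusted over all probes was 0.46. Thus the Reln difference did not pass the test over all probes.

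The Reln difference had nearly the same size in separate parts of the data. It was 0.19 among arrays numbered 1 to 4 and 0.20 among arrays numbered 5 to 8. The WT means of these sets were both 14.07, and the KO means both 14.26. Among arrays 1 to 4 all WT samples were female and all KO samples male by sex-linked genes. Sex and genotype thus cannot be told apart in that set. Across 31 alternative settings the difference stayed between 0.14 and 0.22, with adjusted p from 0.198 to 1.0. It did not depend on a single array, as leaving out each in turn gave 0.17 to 0.22.

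Marker genes were examined for the cell groups named above as sources of Reelin. Of 13 measured genes of the granule cell lineage, Barhl1, a transcription factor of granule cell precursors, rose by 0.50 (adjusted p = 0.0155), and no other gene of the list passed the adjusted threshold. The median of the list was 0.047, and at an unadjusted p under 0.05 only Barhl1 was higher and only Tiam1 was lower (-0.14), the latter named after its value was seen. Of all genes 3.08% were higher and 2.72% lower at this p. The mean log2 signal of this list was 8.07 to 8.18 on the WT arrays and 8.09 to 8.26 on the KO arrays. Of 7 markers of glutamatergic neurons of the cerebellar nuclei none passed, the smallest p being that of Irx3 (-0.25, adjusted p = 0.63), and their mean lay between 8.86 and 9.48 in WT and between 8.80 and 9.22 in KO. The part of either cell group in the Reln values was not tested.

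The receptor gene Vldlr was measured by 5 probes, 3 of them bright. The brightest had a lowest, median and highest log2 signal of 11.51, 11.67 and 11.85 in WT. The same values in KO were 11.51, 11.74 and 11.79. The genotypes overlapped almost completely. KO minus WT was -0.0006 on the log2 scale (95% interval -0.13 to 0.13), and the exact permutation p was 0.992. The other bright probes gave -0.069 and 0.0037. A dim probe, above the array median on 6 of 15 arrays, gave -0.15 (95% interval -0.33 to 0.03).

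DAB1 is the adaptor inside the target cell, where it becomes phosphorylated after Reelin binds. Its 3 probes were above the array median on all arrays. At the brightest, for transcript NM_177259, the log2 signal in WT had a lowest value of 9.35, a median of 9.63 and a highest value of 10.18. In KO these values were 9.10, 9.36 and 9.76. KO replicates 3, 4 and 5 lay below every WT array, while the other 4 KO arrays lay inside the WT range. The log2 fold change was -0.22 (SE 0.121, 95% interval -0.47 to 0.03), with an exact permutation p of 0.141 and an adjusted p of 0.959. The spread between arrays was thus too wide for a call in either direction.

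The probes of Dab1 differed in size. Both probes for transcript NM_010014 gave smaller differences, -0.066 (95% interval -0.26 to 0.13) and -0.046 (95% interval -0.22 to 0.13). The mean of the 3 probes gave -0.11. At the brightest probe the difference was -0.34 among arrays 1 to 4 and -0.16 among arrays 5 to 8. Adding the mean signal of 12 meninges markers to the model moved it to -0.42 (adjusted p = 0.0861), a larger size than without the markers. That marker mean was 8.87 to 9.49 on WT arrays 1 to 4 and 9.05 to 9.60 on KO arrays 2 to 4. It was 8.36 to 9.74 on WT arrays 5 to 8 and 6.94 to 8.37 on KO arrays 5 to 8. Over all arrays the median log2 fold change of the markers was -0.75, and all 12 were lower in KO. Of these, 5 had an unadjusted p under 0.05 (Dcn, Lum, Col1a1, Col3a1 and Slc22a6, named after their values were seen), against 2.72% of all genes. None of the 12 markers passed the adjusted threshold, the smallest p being that of Lum (-1.22, adjusted p = 0.356), and their part in the Dab1 values was not tested.

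Purkinje cells carry DAB1, and 11 of 15 listed Purkinje and GABAergic markers were measured. None of them passed the threshold, and their median log2 fold change was -0.028. The list mean on single arrays spanned 9.27 to 9.54 for WT and 9.12 to 9.61 for KO. The smallest p was that of Lhx5, a transcription factor of Purkinje cell precursors, at -0.43 (adjusted p = 0.592). On KO arrays 2 to 4, where the brightest Dab1 probe averaged 9.22, the list mean was 9.12 to 9.19, below that of every other array. KO array 5 also had a low Dab1 signal, 9.33, but the list mean on KO arrays 5 to 8 was 9.35 to 9.61. The part of these markers in the Dab1 values was not tested.

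FYN, a SRC family kinase that phosphorylates DAB1, was measured by 3 dim probes. The brightest was above the array median on 10 of 15 arrays, the others on 2 and 0. This probe averaged 6.91 ± 0.15 (SD, n = 8) for WT, with a range of 6.70 to 7.18, and 6.88 ± 0.21 (SD, n = 7) for KO, with a range of 6.62 to 7.22. KO minus WT was -0.028 (95% interval -0.21 to 0.15). At this signal the arrays allow little statement on Fyn.

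CDK5 and its activator p35, the product of Cdk5r1, form a kinase needed for radial migration and for the settling of Purkinje cells. Cdk5 had a lowest, median and highest log2 signal of 9.53, 9.84 and 10.28 in WT. In KO these values were 9.57, 9.93 and 10.05, all inside the WT range. For Cdk5 the log2 fold change was 0.035 (95% interval -0.16 to 0.23), with an exact permutation p of 0.745. Cdk5r1 had values of 13.70, 13.78 and 14.08 in WT and 13.62, 13.95 and 14.11 in KO. Its log2 fold change was 0.038 (95% interval -0.14 to 0.22), with an exact permutation p of 0.675. Neither subunit of the kinase was shown to differ between the genotypes.

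Pafah1b1 encodes LIS1, a regulator of dynein. Its brightest probe averaged 9.03 ± 0.17 (SD, n = 8) for WT against 9.01 ± 0.17 (SD, n = 7) for KO. KO minus WT was -0.021 (95% interval -0.20 to 0.15), and the other probes gave 0.072 and 0.054. WT replicate 7 stood apart at 9.40, and without it the difference was 0.032. No probe of the gene separated the genotypes.

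Dcx encodes doublecortin, a microtubule protein of migrating neurons, on the X chromosome. The brightest of its 3 probes had a lowest, median and highest log2 signal of 12.13, 12.31 and 12.50 in WT. In KO these values were 11.99, 12.27 and 12.68, a range wider than and around that of WT. KO minus WT was -0.041 (95% interval -0.23 to 0.15), with an exact permutation p of 0.682. The second bright probe gave -0.021 (95% interval -0.24 to 0.20). The SD was 0.12 in WT and 0.24 in KO, and the KO arrays numbered 2 to 4 were the lower ones.

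**Figure D2:**
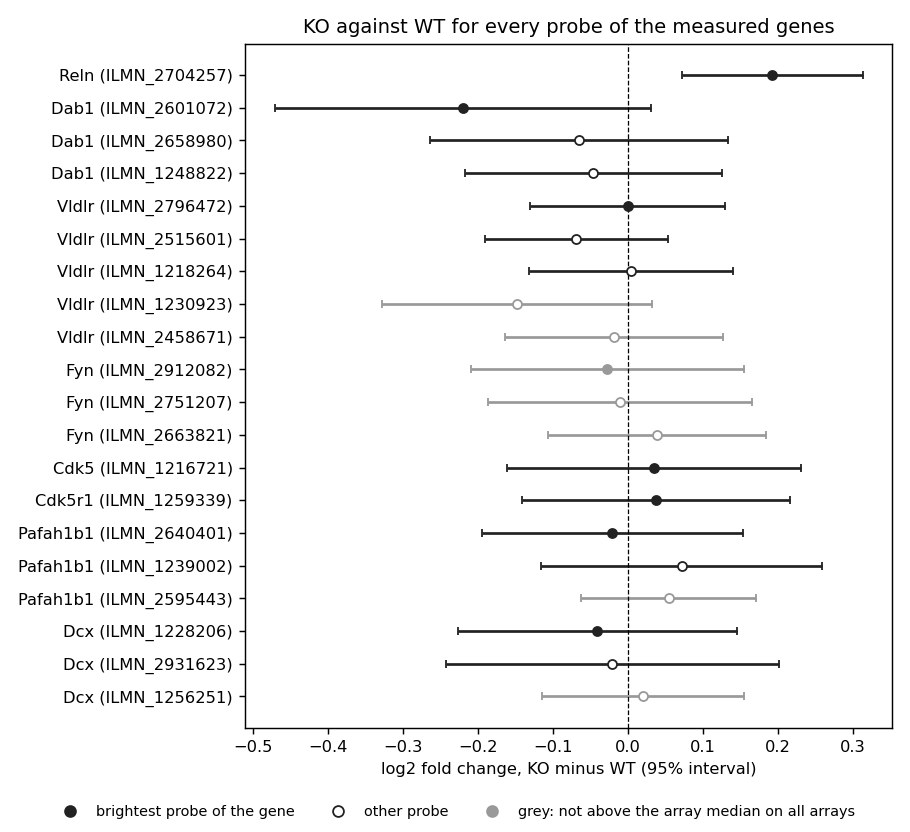
Log2 fold change of KO against WT for each of the 20 probes, with 95% intervals from limma, ordered by gene and brightness. Filled points are the brightest probe of a gene, open points its other probes and grey points probes not above the array median on all arrays. Only the interval of Reln, 0.072 to 0.31, leaves out 0.

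Sample numbers divide the arrays into those numbered 1 to 4 and those numbered 5 to 8, a division first noticed in these data. The BeadChip of each array was not given. Since the division came from these data, p-values between the sets describe it and are no independent test of it. With genotype in the model, 4 of the 8 genes had a higher signal in arrays 5 to 8 and 0 a lower one, namely Dab1, Cdk5, Cdk5r1 and Dcx, but 0 of 8 passed after quantile normalization or without scaling between arrays. Of all genes 20.4% passed, 16.1% higher and 4.37% lower. Among the 4663 genes with a mean log2 signal above 9, the share called higher was 34.2%. The median difference was 0.052 over all genes and 0.14 over these brighter genes, against 0.22 over the 8 genes.

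Cdk5r1 had the smallest p of this group. Its KO arrays numbered 2 to 4 lay at 13.62 to 13.72 and those numbered 5 to 8 at 13.95 to 14.11. Its WT arrays overlapped between sets, at 13.70 to 13.80 and 13.76 to 14.08. The difference between sets was 0.27 (SE 0.06, adjusted p = 0.00388), against 0.11 (adjusted p = 0.231) after quantile normalization. Dcx on KO arrays moved in the same way, from 11.99 to 12.17 in the first set to 12.27 to 12.68 in the second. On WT arrays Dcx also overlapped between sets, at 12.13 to 12.31 and 12.30 to 12.50. The Dcx difference was 0.26 (SE 0.0678, adjusted p = 0.0117), against 0.11 (adjusted p = 0.287) after quantile normalization.

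Cdk5 differed between sets by 0.27 (SE 0.0718, adjusted p = 0.012) and Dab1 by 0.32 (SE 0.0971, adjusted p = 0.0241). After quantile normalization these values were 0.13 (adjusted p = 0.222) and 0.19 (adjusted p = 0.24). The Dab1 call was also lost when WT array 3, WT array 7, KO array 3 or KO array 4 was left out, with differences of 0.27 to 0.31 and adjusted p from 0.0521 to 0.0595, whereas without WT array 2 Fyn passed as well (0.24, adjusted p = 0.0196). Direction of the difference was kept for these 4 genes under every scaling tried.

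Reln and Pafah1b1 had no such difference under median scaling, at 0.0033 (adjusted p = 0.977) and -0.0004 (adjusted p = 0.998). After quantile normalization they lay lower in arrays 5 to 8, at -0.15 (adjusted p = 0.0911) and -0.14 (adjusted p = 0.217). Vldlr was 0.12 (adjusted p = 0.123) under median scaling and -0.011 (adjusted p = 0.926) after quantile normalization. The difference between these genes and the 4 genes above was not tested. The 75th percentile of log2 signal was 8.74 to 8.80 in arrays 1 to 4 and 8.82 to 8.98 in arrays 5 to 8, so that these sets differed in the shape of their signal distributions.

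**Figure D3:**
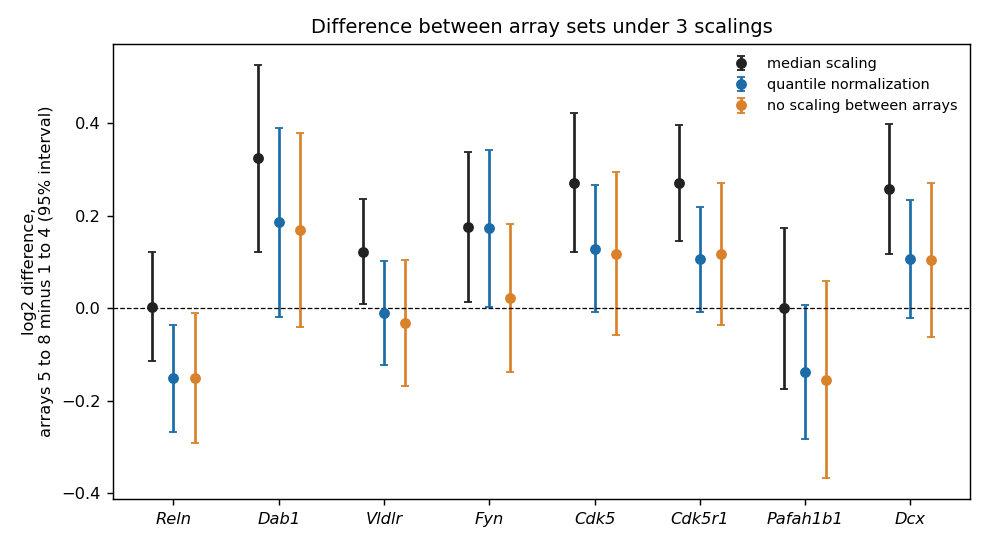
Difference in log2 signal between arrays numbered 5 to 8 and 1 to 4, with genotype in the model and 95% intervals, for each of the 8 genes under 3 scalings. With median scaling Dab1, Cdk5, Cdk5r1 and Dcx lie between 0.26 and 0.32, and with quantile normalization between 0.11 and 0.19.

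The genotype difference of the 8 genes was then tested for a change between array sets. None passed the threshold in limma's interaction test, and none of all 16593 genes did (0.0%). At an unadjusted p under 0.05 Fyn differed, by 0.31 (SE 0.141, p adjusted over all probes = 0.497), as against 10.1% of all genes. Its difference was -0.21 among arrays 1 to 4 and 0.10 among arrays 5 to 8. Dcx was -0.17 and 0.040, Cdk5r1 -0.093 and 0.11, and Pafah1b1 0.12 and -0.15 in these sets. Cdk5 was 0.081 and -0.042, and Vldlr 0.0044 and -0.021. At the brightest probes the signs of these 6 genes thus turned between sets without passing a test. The second Fyn probe turned the other way (0.12 and -0.11), as did the second Pafah1b1 probe (-0.013 and 0.13). The third Pafah1b1 probe (0.033 and 0.075) and the second Vldlr probe (-0.086 and -0.061) kept their sign. The second Dcx probe turned the same way as the brightest (-0.13 and 0.032). Reln kept its sign, as did the brightest probe of Dab1, while the second Dab1 probe was -0.22 and 0.030.

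The arrays also differed in sex. Xist, which is expressed in females, was at 8.10 to 8.57 on WT arrays 1 to 4, 7 and 8 and on KO array 7, and at 6.20 to 6.46 elsewhere, while the Y-linked gene Eif2s3y was at 8.80 to 9.49 on the arrays with low Xist and at 5.97 to 6.09 on the others. Among arrays 1 to 4 sex and genotype cannot be told apart. With Xist in the model the Reln difference was 0.22 (adjusted p = 0.582), that of Dab1 -0.13 (adjusted p = 0.963) and that of the X-linked gene Dcx 0.021 (adjusted p = 0.994). Ttr, a transcript of the choroid plexus, was at 15.46 to 15.90 on 3 WT and 3 KO arrays and at 7.20 to 10.59 on the others, and with Ttr in the model none of the 8 genes passed. Markers of cerebellum and midbrain had a mean of 8.46 to 8.85 in WT and 8.48 to 8.74 in KO, and forebrain markers were dim at 5.97 to 6.22. The smallest p in these lists were those of Pax3 (-0.073, adjusted p = 0.993) and Dlx2 (0.14, adjusted p = 0.906). Among the other cell types listed, Ptf1a, a transcription factor of GABAergic precursors, fell by 0.73 (adjusted p = 0.00486). It was 1 of 6 measured markers of inhibitory interneurons, with a median of -0.24 and values from -0.73 to 0.067. Gdf10, a marker of Bergmann glia, fell by 0.78 (adjusted p = 0.000158). It was 1 of 9 measured markers of astroglia, with a median of -0.069 and values from -0.78 to 0.086. No other marker of either list passed. The part of these genes in the values of the 8 genes was not tested.

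Arrays on which a gene was high after the means of genotype and array set had been taken out were compared with those of 8961 other genes, as a description over 15 arrays that share scaling. Reln followed Cop1 (r = 0.971), Mtpn (r = 0.938) and Hectd2 (r = 0.938) most closely. The log2 fold changes of these genes were -0.011, -0.069 and 0.0001. Most of the remaining spread of Reln lay in WT arrays 5 to 8 (SD 0.17), against an SD of 0.023 to 0.059 in the other groups. These correlations therefore rest largely on few arrays. Dab1 was most like Ttc13 (r = 0.965), Rgs8 (r = 0.945) and Aloxe3 (r = 0.942). Its SD was 0.30 in WT arrays 5 to 8, against 0.13 to 0.21 in the other groups. Dcx was most like Sh3yl1 (r = 0.948), Smarca1 (r = 0.929) and Sltm (r = 0.917). The SD of Dcx was 0.18 in KO arrays 5 to 8, against 0.079 to 0.10 in the other groups. All these are the highest of 8961 correlations, and the height reached by chance was not computed.

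Around these genes, 58 further genes of the Reelin pathway were listed by role, and 53 were measured. None passed the threshold in limma. At an unadjusted p under 0.05, 1 of the 53 was higher in KO (Dctn1) and 2 were lower (Nrp1 and Rap1b). Of all genes 5.8% lay under this p, 3.08% higher and 2.72% lower. Their median log2 fold change was -0.0014, and single values lay between -0.20 and 0.25.

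On the side of the ligand, 11 genes for other receptor ligands, proteases that cut Reelin and receptor turnover were measured, with a median log2 fold change of -0.0014. Adamts5, a protease of the family that cleaves Reelin, had the smallest p, with a log2 fold change of 0.17 (SE 0.0946, adjusted p = 0.969). Of 6 genes for coreceptors, with a median of -0.0068, Nrp1 had the smallest p. Nrp1, neuropilin, which binds semaphorins and associates with VLDLR, lay between 9.84 and 10.14 on the WT arrays and between 9.53 and 10.13 on the KO arrays. Its log2 fold change was -0.18 (SE 0.0779, adjusted p = 0.862), which was -0.078 among arrays 1 to 4 and -0.26 among arrays 5 to 8.

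Inside the cell, 15 genes for kinases, adaptors and DAB1 turnover had a median of 0.0007. Rap1b, a small GTPase that controls adhesion downstream of DAB1, was at 11.28 to 11.70 in WT and 11.13 to 11.40 in KO, with a log2 fold change of -0.16 (SE 0.0672, adjusted p = 0.81), which was -0.055 among arrays 1 to 4 and -0.27 among arrays 5 to 8. In the branch of PI3 kinase and the cytoskeleton, 11 genes had a median of 0.017. Gsk3b, a kinase that phosphorylates tau, had a log2 fold change of -0.17 (SE 0.0828, adjusted p = 0.936), which was -0.35 among arrays 1 to 4 and -0.0075 among arrays 5 to 8.

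The 10 measured partners of CDK5, LIS1 and dynein had a median of -0.045. Dctn1, the large subunit of the dynactin complex that works with dynein, had the smallest p of the 53 genes. Its log2 signal in WT was 8.73 at the lowest and 9.22 at the highest. In KO it was 9.07 at the lowest and 9.28 at the highest, and 3 KO arrays lay above every WT array. The log2 fold change was 0.24 (SE 0.0733, adjusted p = 0.48), and 0.12 with Xist in the model (adjusted p = 0.934). As with Reln, the adjusted test was not passed.

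A further 48 genes of neuronal migration outside the pathway were listed, and 42 were measured. None passed the threshold, and their median log2 fold change was -0.018. At an unadjusted p under 0.05, 3 were higher, Sun2, Bdnf and Ntn1, and Plxna2 was lower, with Bdnf and Ntn1 named after their values were seen. Of all genes 3.08% were higher and 2.72% lower at this p. Of 22 cytoskeletal and polarity genes, with a median of 0.0048, Sun2 had the smallest p. SUN2 links the nucleus to the cytoskeleton, and its gene had a log2 fold change of 0.25 (SE 0.104, adjusted p = 0.814). It was 0.15 among arrays 1 to 4 and 0.30 among arrays 5 to 8, and 0.14 with the meninges markers in the model (adjusted p = 0.918).

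Of 20 adhesion and guidance genes, with a median of -0.024, Plxna2 had the smallest p. PLXNA2 is a plexin that acts as receptor for SEMA6A in granule cell migration. Its log2 signal in WT was 9.24 at the lowest, on replicate 2, and 9.58 at the highest, on replicate 6. In KO it was 8.89 at the lowest, on replicate 8, and 9.23 at the highest, on replicate 2. The genotypes did not overlap, as for 0.0663% of all genes with lower KO values, but the nearest arrays were almost equal. The log2 fold change was -0.29 (SE 0.0716, 95% interval -0.44 to -0.14), with an adjusted p of 0.235. It was -0.093 among arrays 1 to 4 and -0.47 among arrays 5 to 8. Arrays 5 to 8 fitted alone put it just under the threshold (adjusted p = 0.04998), where 78 of 25697 probes passed. No other setting with an adjusted p called Plxna2. With the meninges markers in the model the log2 fold change was -0.20 (adjusted p = 0.532), and over all alternatives the adjusted p ranged from 0.04998 to 0.898.

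**Figure D4:**
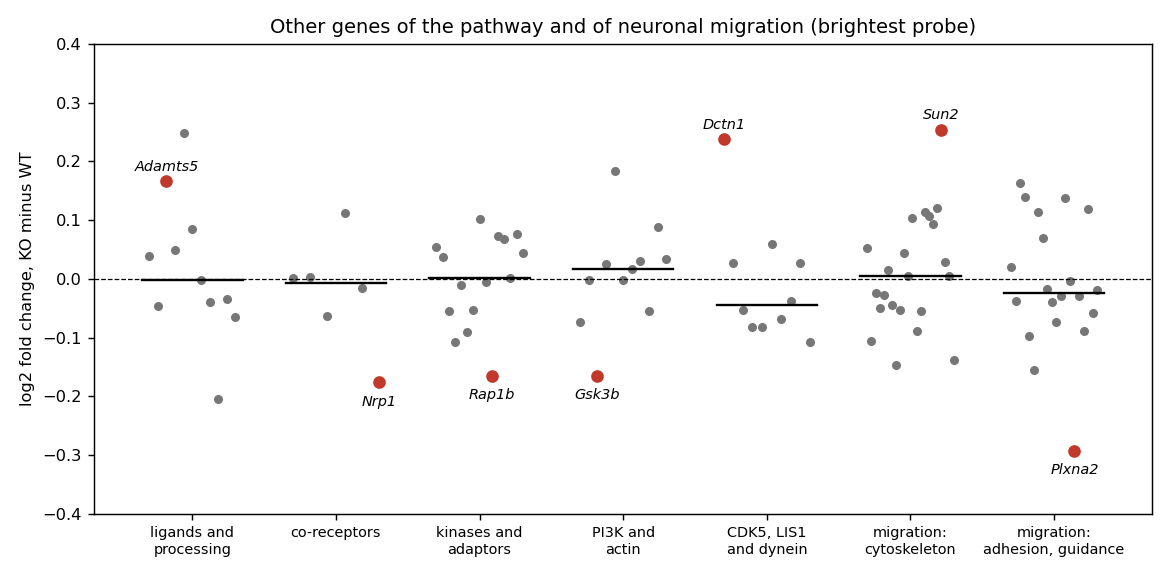
Log2 fold change of KO against WT for the other measured genes of the Reelin pathway (53 genes in 5 groups) and of neuronal migration (42 genes in 2 groups), 1 point per gene at its brightest probe, with the group median as a line. Red points are the gene with the smallest p of each group, and values lie between -0.29 and 0.25.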

How the data were processed

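The authors amplified and biotin-labelled cerebellar RNA, hybridized it to BeadChips and extracted probe signals with GenomeStudio. They deposited the signal intensity of 25697 probes without normalization, and a table of log2 values. Array medians of the signal were 97.3 to 122.9, and no value was at or below 0. These signals were put on the log2 scale, and each array was shifted to the same median. The result equalled the authors' log2 table within 6.23e-05. No detection p and no filter was used. Samples were grouped by labelled genotype.

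Probes were named from the platform annotation through Entrez identifiers. Of the probes 23978 had 1 symbol, 0 several and 1719 none, and 23962 matched RefSeq. Tests used limma 3.58.1 (lmFit, eBayes, two-sided) under R 4.3.3, adjusted over all probes by the method of Benjamini and Hochberg. Other values came from Python 3.11.15, numpy 2.4.6, pandas 2.3.3 and matplotlib 3.10.9. The fit was tested on simulated data. The number of arrays limits the precision.

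The genes, lists and tests were chosen with earlier results of these data known. The rule for named genes took all 10 genes, the gene with the lowest p and any past the threshold in each list used here, the 3 genes most like Reln, Dab1 and Dcx, and Cxcr4, Xist, Eif2s3y and Ttr. Alternatives were other normalizations, normexp with an offset of 50, the authors' table, a filter on dim probes, other probe rules, blocks, covariates, variance models, thresholds and leaving out each array.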

Additional observations from a re-analysis of the deposited data

Results flagged for a closer look

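The brightest probe of Pafah1b1 had 1 array that stood apart from its group. WT replicate 7 was at 9.40, the next highest WT array at 9.04, and this gap was 0.594 of the range of the 8 WT arrays, above Dixon's 95% critical value of 0.526. In all, 40 groups of arrays were examined in this way and 1 was singled out, where chance alone gives about 1 in 20.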

How the results depend on the processing

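The count of called genes between KO and WT stayed at 0 of 8 (and 0 of 20 probes) under all alternatives with an adjusted p, and was 1 gene and 1 probe at an unadjusted p under 0.05. That threshold also gave 3 of 53 other pathway genes and 4 of 42 other migration genes, against 5.8% of all genes. It gave 1 of 8 genes with an interaction, against 10.1% of all genes. Arrays 5 to 8 alone gave 1 migration gene, Plxna2. The count of 4 genes that differed between array sets became 0 after quantile normalization and 0 without scaling, and 3 to 5 with each array left out. The cause was not tested.

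Reln and Dab1 kept their sign in all 31 settings. The other 6 genes had differences near 0 that changed sign without passing a threshold. Vldlr (-0.0006) was 0.013 with normexp, 0.0021 with array weights, 0.0044 in arrays 1 to 4 alone, 0.0011 with Ttr as a covariate and -0.024 to 0.027 with each array left out. Fyn (-0.028) was 0.0002 as the mean of its probes, 0.10 in arrays 5 to 8 alone, 0.0084 with Xist as a covariate and -0.084 to 0.016 with each array left out. Cdk5 (0.035) was -0.042 in arrays 5 to 8 alone, -0.058 with meninges markers as a covariate and -0.013 to 0.095 with each array left out. Cdk5r1 (0.038) was -0.031 after quantile normalization, -0.093 in arrays 1 to 4 alone, -0.088 with meninges markers and -1e-05 to 0.081 with each array left out. Pafah1b1 (-0.021) was 0.035 as the mean of its probes, 0.011 with array weights, 0.12 in arrays 1 to 4 alone, 0.0068 with Xist, 0.029 with meninges markers and -0.056 to 0.032 with each array left out. Dcx (-0.041) was 0.040 in arrays 5 to 8 alone, 0.021 with Xist and -0.11 to 0.0065 with each array left out.

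Same-numbered WT and KO arrays did not deviate together in every pair (r from -0.151 to 0.368), so the numbers were not taken to pair them. With the replicate number as a block, 0 of the 8 genes and 18 probes in all passed, against 20 without it, and the Reln difference was 0.19 (adjusted p = 0.42). Over all probes 12 to 78 passed across alternatives, 12 with Xist as a covariate, 40 with the array set as a block and 78 in arrays 5 to 8 alone, with KO replicate 6 left out 13. Dim probes, such as all 3 of Fyn, limit what can be said of their genes.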
